A study of Mus musculus with 5 samples.

Results

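Transcripts of 10 enzymes of glycolysis were followed across 4 sorted populations of mouse bone marrow and through their single cells. The genes are Hk2, Gpi1, Aldoa, Tpi1, Gapdh, Pgk1, Pgam1, Eno1, Pkm and Ldha, chosen by symbol. All 10 were found among the 27998 genes of the count matrices. The study profiled hematopoietic stem and progenitor cells of healthy wild-type C57BL/6 mice on the 10x droplet platform, which reads the 3' ends of transcripts. The granulocyte-monocyte progenitor gate (GMP) was Lin-KIT+SCA1-CD34+CD16/32+. The megakaryocyte-erythroid progenitor gate (MEP) was Lin-KIT+SCA1-CD34-CD16/32-. The common myeloid progenitor gate (CMP) was Lin-KIT+SCA1-CD34+CD16/32-. The LSK gate, which holds stem cells and multipotent progenitors, was Lin-SCA1+KIT+. No gate carried a transgene, a deletion or a treatment. The age and number of the mice, and whether animals were pooled, were not stated in the labels.

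Glycolysis breaks glucose down to pyruvate in the cytosol and yields ATP and NADH without oxygen. Hexokinases trap glucose in the cell, phosphofructokinases commit it to the pathway, and pyruvate kinase makes the last ATP. Lactate dehydrogenase then turns pyruvate into lactate, which restores NAD+. Several steps have isozymes encoded by separate genes, which differ between tissues in their kinetics and control. Hypoxia-inducible factor (HIF) is a known activator of many of these genes, and long-term stem cells of the marrow are known for their reliance on glycolysis.

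After filtering, 8027 GMP, 6284 MEP, 3713 CMP and 10870 LSK cells remained, with between 26919088 and 80273121 unique molecular identifiers (UMIs, each a counted molecule) per library. Median depth per cell was 9100 UMIs in GMP, 12578 in MEP, 6904 in CMP and 5991.5 in LSK. Each gate had 1 library. The 2 CMP samples held identical values and were counted as 1 sample. Differences between gates therefore had no replicate check, no test was possible, and gate and library cannot be told apart. Intervals given are 95% exact intervals that cover counting error only. The gate labels were compared with defining markers. Elane, a neutrophil granule protease, was at 12374 CPM (UMIs of the gene per 1000000 UMIs of its library) in GMP, 1.87 in MEP, 700.2 in CMP and 5.32 in LSK. Klf1, the erythroid transcription factor, was at 1.12, 422, 12.3 and 3.95 CPM in the same 4 gates. Procr, a stem cell surface marker, was at 0.600, 0.0249, 1.78 and 56.7 CPM. Between 36 and 130 cell barcodes were shared by each pair of libraries.

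These 5 promoter windows are shown because their 4 genes carry the main differences described here. Pkm, Pgam1 and Pklr separated MEP from the other gates, and Ldha, by contrast, had its highest level in MEP. Each window runs from 250 bases before to 50 bases after a RefSeq start (GRCm38.p6). The windows are chr9:59656326-59656625 and chr9:59656977-59657276 for 2 starts of Pkm, chr3:89135892-89136191 for the upstream start of Pklr, chr19:41911621-41911920 for Pgam1 and chr7:46845554-46845853 for the upstream start of Ldha, all on the plus strand. Capitals mark matches on either strand to 3 kinds of motif. The hypoxia core, which HIF is known to bind, was searched as ACGTG and as GCGTG. The GATA factor motif was searched as AGATAA and as TGATAA, and the KLF motif as CCACACCC.
Pkm upstream window: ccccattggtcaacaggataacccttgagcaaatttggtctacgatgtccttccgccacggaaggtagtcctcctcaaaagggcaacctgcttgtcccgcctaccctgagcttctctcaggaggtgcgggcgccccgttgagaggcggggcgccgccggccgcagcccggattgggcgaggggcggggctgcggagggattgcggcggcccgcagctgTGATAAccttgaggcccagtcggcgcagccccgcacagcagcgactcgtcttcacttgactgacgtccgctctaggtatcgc
Pkm downstream window: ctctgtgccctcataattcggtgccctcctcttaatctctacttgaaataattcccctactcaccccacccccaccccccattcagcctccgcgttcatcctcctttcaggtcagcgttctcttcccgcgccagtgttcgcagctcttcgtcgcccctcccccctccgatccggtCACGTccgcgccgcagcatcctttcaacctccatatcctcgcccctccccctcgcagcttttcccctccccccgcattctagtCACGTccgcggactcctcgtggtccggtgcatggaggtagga
Pklr upstream window: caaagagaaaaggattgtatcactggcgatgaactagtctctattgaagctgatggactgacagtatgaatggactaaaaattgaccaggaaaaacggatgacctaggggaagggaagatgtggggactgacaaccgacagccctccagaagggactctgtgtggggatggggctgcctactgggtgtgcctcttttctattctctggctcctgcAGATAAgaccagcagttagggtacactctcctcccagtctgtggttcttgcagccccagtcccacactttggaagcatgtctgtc
Pgam1 window: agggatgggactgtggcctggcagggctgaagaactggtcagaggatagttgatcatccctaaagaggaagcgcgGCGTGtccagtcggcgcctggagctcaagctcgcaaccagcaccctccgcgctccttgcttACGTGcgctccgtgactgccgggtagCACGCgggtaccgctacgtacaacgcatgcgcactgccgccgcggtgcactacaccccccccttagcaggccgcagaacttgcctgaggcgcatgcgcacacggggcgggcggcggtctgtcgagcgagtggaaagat
Ldha upstream window: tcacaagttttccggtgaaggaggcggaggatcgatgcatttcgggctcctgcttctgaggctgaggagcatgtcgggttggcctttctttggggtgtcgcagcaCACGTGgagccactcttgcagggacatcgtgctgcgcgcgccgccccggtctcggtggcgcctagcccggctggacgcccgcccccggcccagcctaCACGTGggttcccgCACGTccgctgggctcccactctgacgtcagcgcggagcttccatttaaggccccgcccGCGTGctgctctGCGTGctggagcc
The hypoxia core was present in 12 of the 16 windows of the 10 genes (75%), against 43.8% of 32851 RefSeq promoter windows of this length. Some windows of Eno1 and of Aldoa overlap and share matches, so the 16 windows are not separate. By gene, 8 of the 10 held the core in at least 1 window. Pgam1 held 3 matches, the downstream Pkm window 2 and the Ldha window 7, of which its 2 E-boxes (CACGTG) count on both strands. A window with 3 or more was found among 8.93% of all promoters, and an E-box among 7.15%. The upstream windows of Pkm and Pklr each held 1 GATA match, which 18.6% of all windows held. KLF matches were found in none of the 5 windows shown, and in 3.56% of all windows. The downstream Ldha window, not shown, held 2 hypoxia core matches and no E-box, and the downstream Pklr window, not shown, held no GATA match. A match describes letters and does not show binding.

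The level of each gene is given as CPM of its library, and genes are not ranked against each other because the counts are not scaled to length. Apart from Hk2, the 95% Poisson interval of a level reached at most 7.14% from it, taken as the mean of both sides. Summed over the 10 genes, the level was 5035 CPM in GMP, 2766 in MEP, 3418 in CMP and 3395 in LSK. By library totals GMP had the highest sum and MEP the lowest, while CMP and LSK lay close together. The log2 ratio of the sums was -0.30 for MEP over LSK and 0.0098 for CMP over LSK. Scaling by median-of-ratios factors instead raised these ratios by 0.52 and 0.38, and TMM factors by 0.44 and 0.31. With either set of factors LSK, and not MEP, had the lowest sum, and GMP stayed highest.

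**Figure D1:**
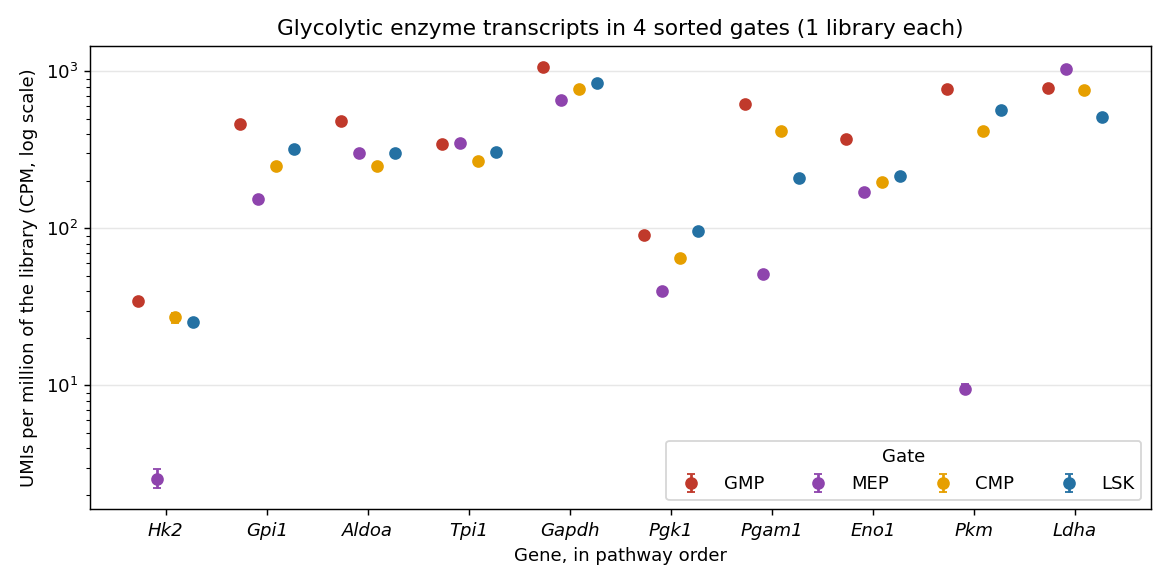
CPM of each library (log axis) for the 10 genes in pathway order, with 95% Poisson intervals, 1 library per gate. GMP lies highest for 7 of the 10 genes, Ldha and Tpi1 are highest in MEP, Pgk1 is highest in LSK, and Pkm in MEP lies at 9.55 CPM against 416 to 775 CPM in the other gates. For Pgk1 the order of GMP and LSK turns with median-of-ratios or TMM factors.

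In the upper, energy-consuming arm, Hk2 and Gpi1 separated MEP from the rest. Hk2, the inducible hexokinase that phosphorylates glucose (chr6:82725025-82774454, minus strand), was at 34.4 CPM in GMP (33.0 to 35.7), 2.55 in MEP (2.22 to 2.93), 27.1 in CMP (25.2 to 29.1) and 25.2 in LSK (24.1 to 26.4). MEP was lowest by about an order of magnitude, and the intervals of CMP and LSK overlapped. Gpi1, which converts glucose 6-phosphate to fructose 6-phosphate (chr7:34201330-34230336, minus strand), was at 462 CPM in GMP, 154 in MEP, 251 in CMP and 318 in LSK. No neighbouring levels overlapped by library totals. With median-of-ratios factors the log2 ratio of CMP over LSK turned from -0.34 to 0.037. Aldoa, the aldolase that splits the 6-carbon sugar (chr7:126795234-126800751, minus strand), was at 487 CPM in GMP, 300.2 in MEP, 251 in CMP and 301 in LSK. MEP and LSK could not be separated for this gene. Tpi1, which interconverts the triose phosphates (chr6:124810586-124814296, minus strand), was the most even member at 344, 351, 271 and 307 CPM in GMP, MEP, CMP and LSK. Its highest level was 1.30 times its lowest, and the GMP and MEP intervals overlapped.

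In the lower, energy-yielding arm, Pgam1 spread the most before the last step. Gapdh, the dehydrogenase that makes NADH (chr6:125161715-125166467, minus strand), was at 1059 CPM in GMP, 656 in MEP, 767 in CMP and 843 in LSK, so that a gene often used to normalise samples varied 1.61-fold. Pgk1, the first ATP-yielding kinase (chrX:106187100-106203699, plus strand), was at 90.2, 40.1, 64.7 and 95.7 CPM in the same order, and was the one member with its highest level in LSK by library totals. With median-of-ratios and TMM factors its log2 ratio of GMP over LSK turned from -0.09 to 0.45 and 0.36. Pgam1, which moves the phosphate of phosphoglycerate (chr19:41911923-41918660, plus strand), was at 621 CPM in GMP (616 to 627), 51.4 in MEP (49.9 to 53.0), 417 in CMP (409 to 425) and 209 in LSK (206 to 212). Its levels fell into 4 separate steps with MEP at the bottom. Eno1, the enolase (chr4:150236721-150248879, plus strand), was at 373 CPM in GMP, 171 in MEP, 197 in CMP and 215 in LSK. GMP stood above the other 3 gates, and reads of near-identical enolase and Gapdh copies in the genome make these 2 levels less certain.

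The widest and the most contrary pattern stood at the end of the pathway. Pkm, the pyruvate kinase of most tissues (chr9:59656368-59679375, plus strand), was at 775 CPM in GMP (768 to 781), 9.55 in MEP (8.89 to 10.3), 416 in CMP (408 to 424) and 567 in LSK (561 to 572). The MEP library held 767 Pkm UMIs, against 56828 in GMP, an 81.1-fold difference in CPM. Fewer cells with Pkm and less Pkm RNA per cell cannot be told apart in these sums. Ldha, the lactate dehydrogenase subunit that favours lactate production (chr7:46841475-46855627, plus strand), was at 789 CPM in GMP, 1031 in MEP, 756 in CMP and 515 in LSK. Unlike Pkm, Ldha was highest in MEP, and it was lowest in LSK. Both genes were higher in GMP than in CMP and LSK.

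To read the gates against each other, a gene passed the rule used here if its CPM differed at least 2-fold and reached 50 in at least 1 of both gates. Hk2 never reached 50 CPM, so 9 members could pass. Its log2 ratios were 3.75 in GMP over MEP, -3.41 in MEP over CMP and -3.30 in MEP over LSK. The 6 pairs of gates share libraries and are not independent. GMP over MEP had 5 members higher, Gpi1, Pgk1, Pgam1, Eno1 and Pkm, and none lower. Among 3066 genes that reached 50 CPM, 12.2% were higher in GMP and 12.1% higher in MEP. The median log2 ratio was 1.15 for the 10 members and -0.21 for all those genes. The log2 ratio was 6.34 for Pkm (6.24 to 6.45), 3.60 for Pgam1 (3.55 to 3.64), 1.59 for Gpi1 (1.56 to 1.62), 1.17 for Pgk1 (1.11 to 1.23) and 1.12 for Eno1 (1.09 to 1.15). Ldha had -0.38 and Tpi1 -0.03, the 2 members that were not higher in GMP.

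In MEP over CMP, Pkm had a log2 ratio of -5.44 (-5.55 to -5.34) and Pgam1 -3.02 (-3.07 to -2.97), and no member passed in the other direction. In that pair 11.3% of 3104 genes were higher in CMP and 10.5% higher in MEP, and the medians were -0.46 for the members and 0.18 for all. In MEP over LSK, 4 members were lower, Pkm at -5.89 (-5.99 to -5.79), Pgam1 at -2.02 (-2.07 to -1.97), Pgk1 at -1.26 (-1.32 to -1.20) and Gpi1 at -1.05 (-1.08 to -1.02). One member, Ldha, was higher, at 1.001 (0.98 to 1.02), which puts it on the threshold. The background was 16.4% of 3350 genes higher in LSK and 13.5% higher in MEP, and the medians were -0.71 and 0.18. With scaling by median-of-ratios or TMM factors, 2 members were lower and 1 higher in this pair, because Gpi1 and Pgk1 no longer passed. Under both, Aldoa, Gapdh and Eno1 changed sign, and under median-of-ratios factors 34.8% of all genes were higher in MEP and 11.9% higher in LSK.

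GMP over LSK had 1 member that passed, Pgam1, with a log2 ratio of 1.57 (1.55 to 1.60). This stood beside 7.49% of 3149 genes higher in GMP and 13.3% higher in LSK, and medians of 0.50 for the members and -0.01 for all. Median-of-ratios factors raised every log2 ratio of this pair by 0.54 and TMM factors by 0.45. With the first, Gpi1, Aldoa, Pgam1, Eno1 and Ldha passed, 24.96% of all genes were higher in GMP and 7.46% higher in LSK, and Pgk1, at -0.09 by library totals, turned to 0.45. GMP over CMP had none that passed, beside 2.92% of 2804 genes higher in GMP and 4.03% higher in CMP. All 10 members nevertheless lay above 0, from 0.06 for Ldha to 0.95 for Aldoa, with a median of 0.53 against -0.01 for all genes. Gpi1, Aldoa, Eno1 and Pkm passed with median-of-ratios factors, when 3.92% of all genes were higher in GMP and 3.21% higher in CMP.

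No member passed in CMP over LSK by library totals. In that pair 2.72% of 3056 genes were higher in CMP and 6.12% higher in LSK. Median-of-ratios scaling changed these shares to 9.20% for CMP and 3.11% for LSK. Pgam1 came closest, at 0.998 (0.96 to 1.03) and a fold of 1.997, just outside the rule, and it passed with both sets of factors. The median was -0.16 for the members and 0.05 for all genes. Gpi1, Aldoa, Tpi1, Gapdh and Eno1 were below 0 by library totals and above 0 with median-of-ratios factors, so no direction is given for them between CMP and LSK.

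**Figure D2:**
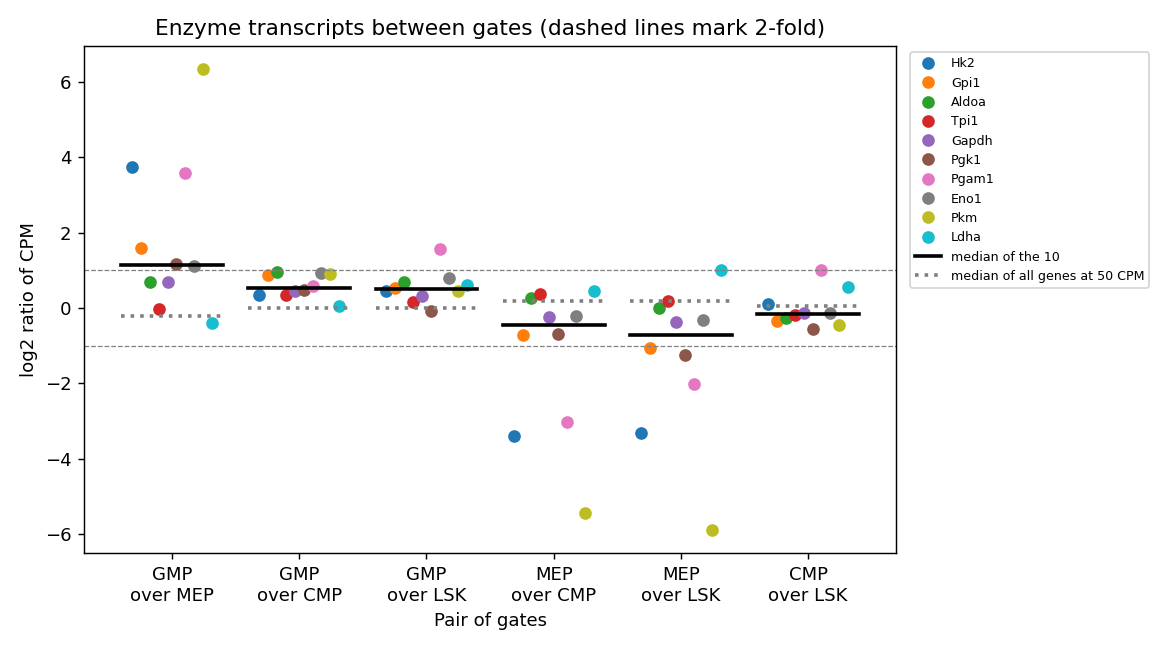
Log2 ratio of CPM for the 10 genes in each of the 6 pairs of gates, with the median of the 10 (solid) and of all genes at 50 CPM or more (dotted), each point being 1 library over another. Pkm, Hk2 and Pgam1 lie farthest from 0 wherever MEP is compared, all 10 genes lie above 0 in GMP over CMP, and with median-of-ratios factors the sign turns for Pgk1 in GMP over LSK, for Aldoa, Gapdh and Eno1 in MEP over LSK, and for Gpi1, Aldoa, Tpi1, Gapdh and Eno1 in CMP over LSK.

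The isozyme make-up of several steps differed between gates. Pyruvate kinase is encoded by Pkm and by Pklr, the form known from red cells and liver (chr3:89136142-89146784, plus strand). Pklr had 0 UMIs in GMP, 3162 in MEP, 1 in CMP and 8 in LSK. It made up 80.5% of pyruvate kinase UMIs in MEP (79.2 to 81.7), while 0 of 56828 UMIs in GMP has an exact upper bound of 0.00649%. Both genes together reached 48.9 CPM in MEP, against 775 in GMP, 416 in CMP and 567 in LSK.

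Hexokinase changed its make-up while its sum stayed within 96.6 to 142 CPM. Hk1, the widely expressed form, made up 16.6% of hexokinase UMIs in GMP (15.9 to 17.3), 97.4% in MEP (97.0 to 97.7), 36.3% in CMP (34.4 to 38.2) and 50.2% in LSK (49.1 to 51.4). Hk3, a form known from myeloid cells, made up 59.1% in GMP (58.2 to 60.1), 35.7% in CMP (33.8 to 37.6) and 24.7% in LSK (23.7 to 25.7), and had 1 UMI in MEP against 6144 in GMP. Hk2 kept to between 24.3 and 28.0% outside MEP and was 2.58% in MEP (2.25 to 2.96). MEP thus held nearly Hk1 alone, and GMP mostly Hk3.

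Phosphofructokinase also differed in its make-up. Pfkp, the platelet-type subunit, made up 45.9% of the family in GMP (44.7 to 47.1), 9.80% in MEP (9.10 to 10.5), 29.3% in CMP (27.4 to 31.2) and 17.8% in LSK (16.98 to 18.6). Pfkm, the muscle-type subunit, made up 3.68%, 34.3%, 7.59% and 11.4% in the same gates. Pfkl, the liver-type subunit, held the rest, at 50.4% in GMP, 55.9% in MEP, 63.1% in CMP and 70.9% in LSK. Pfkp was therefore largest in GMP, Pfkm in MEP and Pfkl in LSK.

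Lactate dehydrogenase divided LSK and GMP from MEP and CMP. Ldhb, the subunit that favours use of lactate, made up 8.04% of the family in GMP (7.83 to 8.26), 0.284% in MEP (0.249 to 0.323), 1.61% in CMP (1.44 to 1.79) and 15.6% in LSK (15.3 to 15.97). Aldoc, a minor aldolase, was at 0.101, 0.116, 0.705 and 4.38% of its family in the same order, highest in LSK. Eno3, the muscle enolase, was at 1.29% in GMP, 8.13% in MEP, 2.80% in CMP and 2.80% in LSK, highest in MEP. Pgam2 had at most 9 UMIs in any gate, so nearly all phosphoglycerate mutase UMIs were of Pgam1.

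**Figure D3:**
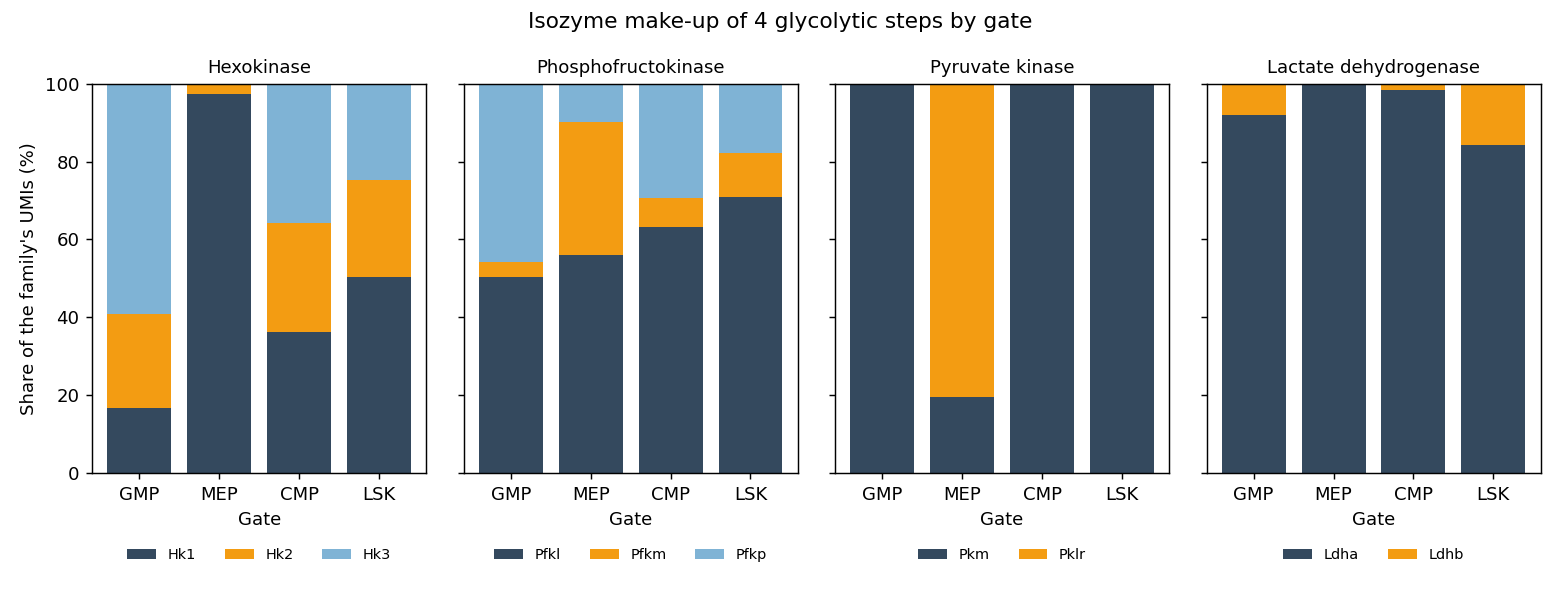
Share of each family's UMIs (%) taken by its isozyme genes in the 4 gates, 1 library per gate. MEP is the gate with 97.4% Hk1 and 80.5% Pklr, GMP has the largest shares of Hk3 and Pfkp, and LSK the largest share of Ldhb.

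Cells were then clustered jointly with the glycolysis and pathway genes left out of the gene set, which gave 21 groups of 50 or more cells of 1 cluster within 1 gate. Gate, library and cluster coincide for most groups. Of the MEP cells, 95.8% fell in 4 erythroid-like clusters and 3.27% in cluster 13, megakaryocyte-like, led by Pf4 and Gp1bb. In the erythroid-like clusters, Hba-a1, an alpha globin, was at 20.6 CPM in cluster 15, 16.5 in 18, 28.9 in 16 and 455 in 17. Gata2, a factor of early progenitors, was at 90.4, 55.2, 23.6 and 9.32 CPM in those 4. Cluster 17 therefore had the most globin and the least Gata2. Mki67, a marker of cycling cells, was at 61.3, 257, 208 and 303 CPM.

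Pkm and Pklr ran opposite ways over these clusters. Pkm was at 16.1 CPM in cluster 15 (14.1 to 18.4), 12.2 in 18 (10.0 to 14.6), 1.47 in 16 (1.10 to 1.92), 0.695 in 17 (0.333 to 1.28), and 235 in the megakaryocyte-like cluster 13 (206 to 266). Pklr was at 24.7 CPM in cluster 15 (22.1 to 27.4), 23.6 in 18 (20.6 to 26.9), 43.0 in 16 (40.9 to 45.2), 55.8 in 17 (52.0 to 59.8), and 7.89 in cluster 13 (3.40 to 15.5). Pklr thus took 60.4% of pyruvate kinase UMIs in cluster 15, 98.8% in 17 and 3.25% in 13. The 195 megakaryocyte-like cells, 3.27% of MEP cells, held 33.4% of all Pkm UMIs of the gate, and the erythroid-like cells held 55.6% of Pkm and 99.7% of Pklr.

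Other members also differed along these clusters. Pgam1 was at 64.7 CPM in cluster 15, 61.3 in 18, 50.1 in 16 and 26.7 in 17, against 157 in cluster 13. Gpi1 was at 209.6 CPM in 15, 199 in 18, 143 in 16 and 91.8 in 17, against 201 in 13. Pfkm was at 24.4, 17.9, 31.0 and 36.8 CPM in clusters 15, 18, 16 and 17, while Pfkp was at 10.5, 12.3, 7.59 and 2.64. Cluster 17 was lowest for Hk2, Gpi1, Pgk1, Pgam1, Eno1 and Pkm over all 21 groups. Tpi1 was at 327 to 372 CPM in all 4 erythroid-like clusters, and Gapdh at 631 to 673 in the same clusters.

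**Figure D4:**
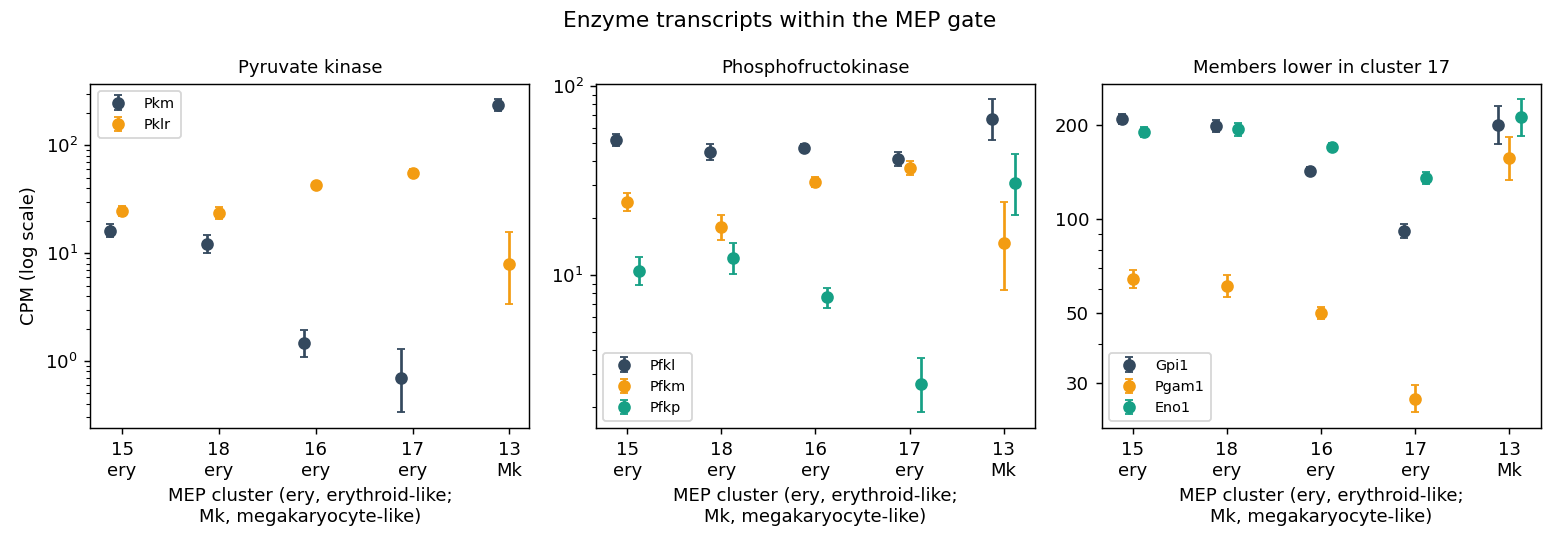
CPM (log axes) of pyruvate kinase genes, phosphofructokinase genes and of Gpi1, Pgam1 and Eno1 in the MEP clusters, with 95% Poisson intervals. From cluster 15 to cluster 17 Pkm is lower (16.1 and 0.695 CPM) and Pklr higher (24.7 and 55.8 CPM), and the megakaryocyte-like cluster 13 has Pkm at 235 CPM.

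The megakaryocyte-like cluster 13 was found in 3 gates and could be set side by side. Its Pkm level was 235 CPM in MEP cells, 283 in CMP cells (249.9 to 320) and 392.2 in LSK cells (351 to 437). Ldha was at 1129 CPM in MEP, 1009 in CMP and 1018 in LSK cells of that cluster, above every other LSK and CMP group. Hk2 was at 8.87, 9.93 and 4.77 CPM there, from 9, 9 and 4 UMIs in MEP, CMP and LSK cells. In MEP that was above the 2.41 CPM of the erythroid-like cells (2.07 to 2.80).

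Within GMP, summed levels were 5239 CPM in cluster 0 and 5161 in cluster 1, both monocyte-like, 5136 in cluster 3, led by Prg2 and Prg3, and 4692 in cluster 7, led by Wfdc21 and Cebpe. Cluster 4, with 63 GMP cells and led by Cxcl2 and Ccl4, had 4511 CPM, and the basophil and mast-like cluster 5 had 3522 CPM. Pgam1 was at 670.4 CPM in cluster 0, 676 in 1, 589 in 3, 535 in 7, 492 in 4 and 313 in 5. Gpi1 instead was highest in cluster 3, at 589 CPM (574 to 603). Clusters 0, 1, 3 and 7 thus had the highest sums, and clusters 4 and 5 lay below them.

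Within CMP, the sum was 3714 CPM in cluster 4, led by Cxcl2 and Ccl4, 3131 in the unnamed cluster 6, 2903 in the megakaryocyte-like, 2595 in the basophil and mast-like and 2373 in the dendritic-like cluster. The basophil and mast-like CMP cells had Hk1 at 95.6 CPM (83.9 to 109), Hk3 at 3.98 (1.91 to 7.33), Pgam1 at 148 (133 to 164) and Pkm at 220 (202 to 239). Hk2 had its highest level of all 21 groups in the 102 dendritic-like cells, at 62.8 CPM (42.7 to 89.1) from 31 UMIs, while Aldoa and Tpi1 had their lowest there, at 87.1 and 101 CPM.

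Within LSK, the sum was 3237 CPM in cluster 8, led by Dntt and histone genes, 3965 in cluster 9, led by Ctla2a and Klf6, 3193 in cluster 11, led by Wfdc17, Dntt and Flt3, and 3095 in cluster 12, led by Clec1a and Procr. Clusters 9 and 12 were both named stem and multipotent cells by the fixed markers. Cluster 12, with the stem cell marker Procr among its leading genes, had the lowest sum of the gate, and cluster 9 the highest. Over clustering settings the sum in LSK cells with these names ran from 3078 to 3570 CPM, so this contrast may depend on the setting. Gapdh was at 641 CPM in cluster 12, against 927 in 8, 983 in 9 and 781 in 11. Aldoa set cluster 8 apart, at 145 CPM (139 to 151) against 347 in 9, 341 in 11 and 385 in 12. Cluster 8 also had the highest Mki67 of these, at 312 CPM against 29.8, 21.2 and 14.1.

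**Figure D5:**
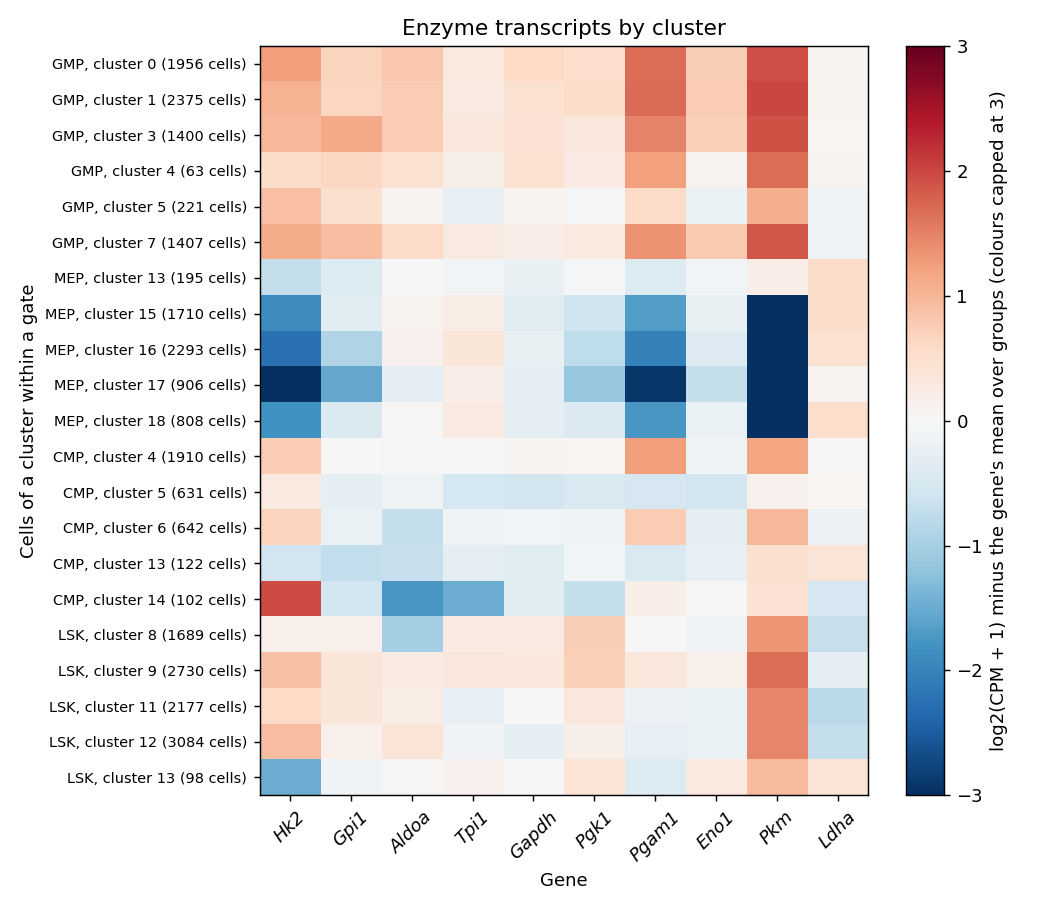
Log2(CPM + 1) of the 10 genes in 21 groups of cells, each a cluster within a gate, minus the mean of the gene over groups, with colours capped at 3. The 4 erythroid-like MEP clusters (15 to 18) are lowest for Pkm, Hk2 and Pgam1, GMP clusters 0, 1, 3 and 7 are highest for Pkm and Pgam1, and Aldoa is low in LSK cluster 8 and in CMP cluster 14.

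At the level of single cells thinned to 2000 UMIs, a Pkm UMI was found in 76.0% of GMP cells (75.1 to 76.9), 3.07% of MEP cells (2.66 to 3.53), 50.8% of CMP cells (49.2 to 52.5) and 66.0% of LSK cells (65.1 to 66.9). Without thinning the order of the gates was the same. How much of the MEP share came from free RNA was not tested. Pgam1 was found in 69.4% of GMP, 9.68% of MEP, 48.4% of CMP and 31.9% of LSK cells. Ldha was found in 76.5%, 86.2%, 73.8% and 58.7% of them. The order of the gates for these 3 genes was the same as in the library sums.

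A thinned cell held UMIs of a median of 6 of the 10 genes in GMP, 3 in MEP, 4 in CMP and 4 in LSK. Cells with none numbered 1 in GMP, 46 in MEP, 15 in CMP and 40 in LSK. Pairs of members correlated weakly over cells of a library, with median Pearson r between 0.0158 and 0.0234 over 45 pairs and a highest value of 0.149, for Pgam1 and Pkm in CMP. Counts this sparse give no finding either way. Among erythroid-like MEP cells, a Pklr UMI was found in 2 of 92 cells with a Pkm UMI (2.17%, 0.264 to 7.63) and in 359 of 5625 cells without (6.38%, 5.76 to 7.05), and these intervals overlap.

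Markers of cycling cells also differed between gates, and their part in the differences between gates was not tested. Of 16 genes of the G2 and mitosis list, 13 could be read in GMP over LSK and 14 in MEP over LSK. By the 2-fold rule 4 were higher in GMP than in LSK, beside 7.49% of all genes. With either set of factors 6 were higher, beside 24.96% of all genes with median-of-ratios and 20.4% with TMM factors. In MEP over LSK 5 were higher, beside 13.5% of all genes. With median-of-ratios factors 11 were higher, beside 34.8% of all genes, and with TMM factors 9, beside 30.7%. None was lower in either pair. Within a gate, the summed level of the 10 members differed little between cells with and without a Mki67 UMI at 2000 UMIs. The log2 ratio of Mki67-positive over Mki67-negative cells was -0.035 in GMP (-0.06 to -0.01), -0.12 in MEP (-0.16 to -0.09), -0.09 in CMP (-0.14 to -0.03) and -0.05 in LSK (-0.09 to -0.02). With 2 or more UMIs of the list in place of Mki67, the CMP and LSK values turned to 0.011 and 0.021. Of the Mki67-positive cells, 1149 of 1367 in GMP and 1320 of 1705 in MEP rested on 1 UMI, so Mki67-negative cells can include cycling cells. The log2 ratio of the sum of the 10 was 0.86 in GMP over MEP, and the part of cycling cells in it was not tested.

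Single members differed more than the sum, with the widest ratio for Aldoa in LSK. It was at 168 CPM in Mki67-positive and 345 CPM in Mki67-negative LSK cells, a log2 ratio of -1.04 (-1.19 to -0.89). In CMP it was at 185 and 262 CPM, a log2 ratio of -0.50 (-0.73 to -0.29), while in GMP and MEP the ratios were 0.0058 (-0.08 to 0.09) and -0.06 (-0.17 to 0.04). Inside single LSK clusters the ratio was -0.17 (-0.45 to 0.10) in cluster 8, -0.54 (-0.93 to -0.18) in 9, -0.43 (-0.89 to -0.00294) in 11 and -0.11 (-0.51 to 0.27) in 12. Each of these estimates was smaller than that of the whole gate, but the intervals of clusters 9 and 11 reached its interval. Mki67 was at 312 CPM in cluster 8, against 29.8, 21.2 and 14.1 in 9, 11 and 12. The clusters thus overlap with the Mki67 split, and the part of cycling cells in the smaller ratios was not tested. In MEP, Pkm was at 11.7 CPM in Mki67-positive and 20.2 CPM in Mki67-negative cells, a log2 ratio of -0.78 (-1.32 to -0.28).

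Around the pathway, lists of neighbouring genes were read by the same rule. Of 7 transporters, of which at most 2 reached 50 CPM in a pair, Slc16a1, which carries lactate and pyruvate, was higher in MEP, at 23.6 CPM in GMP, 55.3 in MEP, 19.2 in CMP and 13.5 in LSK, with log2 ratios of 1.53 for MEP over CMP and 2.04 for MEP over LSK. The glucose transporter Slc2a1 stayed at or below 10.8 CPM in every gate and could not be read. Of 17 regulators, 4 reached 50 CPM in each pair and none of those passed. Of 14 other hypoxia targets, at most 3 reached 50 CPM, so the list could hardly be read. Ndrg1 was the one that passed by library totals, at 13.1 CPM in GMP, 7.85 in MEP, 60.5 in CMP and 102 in LSK. It was lower in GMP and in MEP than in CMP and LSK, which is not the order of any of the 10 enzymes.

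Of 16 genes of the citric acid cycle, Cs, Idh3a, Dlst, Sdhd and Mdh2 were higher in MEP than in LSK and none lower, beside 13.5% of all genes, with a list median of 0.66 against 0.18 for all genes. With median-of-ratios factors 10 were higher, beside 34.8% of all genes. In GMP over LSK none of 13 passed by library totals. With either set of factors 5 were higher, beside 24.96% of all genes with median-of-ratios and 20.4% with TMM factors. Cs, citrate synthase, was at 45.1 CPM in GMP, 90.6 in MEP, 43.5 in CMP and 38.0 in LSK. Dlst, of the oxoglutarate dehydrogenase complex, was at 25.2, 60.6, 24.1 and 27.5 CPM. In GMP over MEP these 2 of 16 were lower, at -1.006 and -1.26, beside 12.1% of all genes higher in MEP. Cs no longer passed with the other scalings. Mpc1, which brings pyruvate into mitochondria, was at 407 CPM in GMP, 343 in MEP, 257 in CMP and 143 in LSK. Dlat, of the pyruvate dehydrogenase complex, was at 43.5, 62.7, 28.4 and 30.8 CPM, highest in MEP.

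Of 8 pentose phosphate genes, Pgd, which makes NADPH, was higher in GMP than in each other gate, at 124 CPM in GMP, 57.7 in MEP, 61.0 in CMP and 44.8 in LSK. Taldo1 was also higher in GMP and in MEP than in LSK, at 1.011 and 1.03, and Rpia in MEP than in LSK, at 1.03. These ratios lay close to the 2-fold threshold. Of 5 genes that could be read, 2 were higher in GMP than in LSK, beside 7.49% of all genes. In MEP over LSK 2 were higher, beside 13.5%. With median-of-ratios factors 4 and 3 were higher, beside 24.96% and 34.8% of all genes. With TMM factors 3 and 2 were higher, beside 20.4% and 30.7%. Of 6 gluconeogenesis genes, Pck2 was lower in GMP than in MEP (-1.07) and LSK (-1.18), and lower in CMP than in LSK (-1.08). The 2 ratios against LSK no longer passed with median-of-ratios or TMM factors.

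Over the 21 groups and 4855 genes, the genes whose log2(CPM + 1) ran most like the mean of the 10 members were Gstm1 (Pearson r 0.91), Alas1 (0.90), Cdk5rap3 (0.88), Rnaset2a (0.88) and Mgst1 (0.87). Pgam1 ran most like Prtn3 (0.98), Hexa (0.96) and Adssl1 (0.95), and Pkm most like Cd79b (0.99), Hcst (0.98) and Wls (0.98). Ldha ran most like Bcap29 (0.94), Prps1 (0.90) and Eif1ad (0.88). Among the members, Pgam1 and Pkm had r = 0.89 and Hk2 and Pkm 0.87, whereas Pkm and Ldha had -0.47 and Hk2 and Ldha -0.61. Groups of 1 gate share a library and are not independent, so these values describe the order of the groups and no test was made.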

How the data were processed

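The deposited matrices hold raw UMI counts, whole numbers without normalization. Cell Ranger 2.0.0, CASAVA 1.8.2, Seurat 2.3.0 and the mm10 genome are named in the submitters' processing notes. How the submitters filtered cells was not stated in any label. LSK barcodes with 2110 or more UMIs were taken as cells, 10883 against 10882 in the design text. The CMP matrix held 3738 barcodes, the design text states 12185 CMP cells, and the rest were not analysed here. A cell needed 500 detected genes and no more than 10% of UMIs from mitochondrial genes. Counts were summed per library and divided by its total. Counts under 3 were set to 3 in ratios. Doublets, the highest scores of scanpy's Scrublet at 0.8% per 1000 cells, were left out of clusters and the Mki67 split. Clustering used scanpy 1.11.5 (2000 variable genes, 30 components, 15 neighbours, Leiden resolution 1, no batch correction), and cluster names need 3 or more fixed markers. TMM factors came from edgeR 4.0.16. Named genes were all members, their isozymes, up to 6 genes per pathway list and pair that passed the rule, and the 3 to 5 genes most alike. Members, lists and rules were chosen with earlier results of these data known. On counts simulated with counting noise only, 200 genes with a mean of 50 CPM or more were changed 3-fold. Between 199 and 200 were recovered in each pair, and 0 others. Differences between libraries were not simulated, so this does not check the calls against them.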

Additional observations from a re-analysis of the deposited data

Results flagged for a closer look

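Gapdh differed in direction between gates when cells were divided by Mki67. The log2 ratio of Mki67-positive over Mki67-negative cells was 0.19 in LSK (0.13 to 0.26), at 871 and 761 CPM, and -0.07 in GMP (-0.13 to -0.01), at 983 and 1035 CPM. The difference between the gates was not tested.

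The LSK matrix also held 426145 barcodes under 100 UMIs, which no comparison used. In them the 10 members summed to 3344 CPM from 3933 UMIs, against 3395 CPM in LSK cells. Gapdh was at 841 CPM in these barcodes and 843 CPM in cells, and Pkm at 542 and 567 CPM.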

How the results depend on the processing

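Of the 13 calls of a member by the 2-fold rule, 11 remained with median-of-ratios factors and with TMM factors, 12 with doublets left out, with no filter on cells, with totals without ribosomal protein and mitochondrially encoded genes and with means over cells, and 5 of 6 with LSK cells of 4000 or more UMIs. None turned. All calls lost were in MEP over LSK. They were Gpi1 and Pgk1 with either set of factors, Gpi1 with means over cells, and Ldha, which lay on the threshold, in the other 4. GMP over MEP had 5 members called by library totals, 7 at 1.5-fold and 6 with a minimum of 10 CPM, where Hk2 passed in this pair and in the other pairs with MEP. GMP over CMP had 0 by library totals, 4 with median-of-ratios factors, TMM factors or a 1.5-fold rule, and 1 with means over cells. GMP over LSK had 1, against 5, 4 and 4. MEP over CMP had 2, and 4 at 1.5-fold. MEP over LSK had 5, and 3 with either set of factors. CMP over LSK had 0, and 1 with either set or at 1.5-fold. With TMM factors 3.71% of all genes were higher in GMP than in CMP, and 20.4% higher in GMP than in LSK. In CMP over LSK 7.69% were higher in CMP, and in MEP over LSK 30.7% were higher in MEP and 12.5% higher in LSK. Shares of all genes at 1.5-fold or at 10 CPM were not computed, so the counts under those rules are not read as results about the members. Medians of the members with median-of-ratios and TMM factors were 0.69 and 0.66 in GMP over CMP, 1.03 and 0.94 in GMP over LSK, -0.32 and -0.34 in MEP over CMP, -0.19 and -0.27 in MEP over LSK, and 0.22 and 0.16 in CMP over LSK, where library totals gave -0.16. Each set of factors adds the same amount to every log2 ratio of a pair, 0.38 and 0.31 in CMP over LSK. The median of all genes moved by that amount too, so the members kept their distance from it. With means over cells the medians of the members were 1.08 in GMP over MEP, 0.63 in GMP over CMP, -0.36 in MEP over CMP and -0.61 in MEP over LSK. Totals without ribosomal protein and mitochondrially encoded genes gave 0.42 in GMP over LSK, -0.76 in MEP over LSK and -0.20 in CMP over LSK, and LSK cells of 4000 or more UMIs gave -0.19 in CMP over LSK. The Mki67 split moved to 0.011 in CMP and 0.021 in LSK with the G2 and mitosis list, and to -0.15 and -0.11 at 4000 UMIs. The cause of the shifts with means over cells, with deeper LSK cells and in the Mki67 split was not tested. Over clustering settings, summed levels stayed within 2757 to 2759 CPM in erythroid-like MEP cells and 5157 to 5195 CPM in monocyte-like GMP cells, but ran from 3078 to 3570 CPM in the LSK clusters with stem cell markers. No paired analysis was possible because each gate had 1 library. The gate order by share of cells changed with depth or without thinning for Gpi1, Aldoa, Tpi1, Gapdh, Pgk1 and Eno1, so it was not read for them.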
